A study of Arabidopsis thaliana with 11 samples.

Results

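The transcripts described here were lower in the shoots of every CBF4-overexpressing pool than in any pool of wild type or AtNF-YB1-overexpressing seedlings. They are 69 of the 19371 plant probe sets on a custom Arabidopsis thaliana GeneChip. A probe set is the group of short probes that reads 1 transcript, or in some cases several. The values are log2 intensities after quantile normalization of the 11 arrays, with the lowest 20% of all values raised to a floor of 0.93. A probe set was taken where the highest of the 4 CBF4 arrays lay below the lowest of the other 7, where the mean difference was −0.5 log2 or less, and where the mean of the other 7 arrays was at least 4. That mean compares with a median of 4.03 over all plant probe sets. Of 79 probe sets (0.408%) that met these conditions, 10 were left out by gene name, among them 4 plant defensins of the PDF1 group, HIS1-3, APS3, CYP71B22 and 3 MATE transporters. Of the 69 members 34 carry a gene name, each assigned to a different locus, and 35 have none in the annotation used here. The probe sets of 7 members carry the suffix that Affymetrix gives to sets shared by several transcripts. Besides TPS-CIN and the unnamed MRT3702_69608C.1_s_at these are AT5G46900, AT3G15356, AT2G43150, AT1G18020 and AT4G24350, whose values may mix several genes. The members were thus selected on the difference between the CBF4 arrays and all others, which is given as a description without a test.

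Wild type seedlings were Col-0, and the AtNF-YB1 lines are described as homozygous. The CBF4 and AtNF-YB1 seedlings expressed their factor from 35S, a promoter active in most plant cells, so the factor was not limited to tissues that normally make it. The groups were CBF4 lines 10 and 19 and AtNF-YB1 lines 3 and 6, with 2 arrays per line, and 3 wild type arrays. The second CBF4 line is called 19 here, as in the array labels, but the study's design text gives both 19 and 23 for it, and what 23 refers to was not settled. In all groups the shoots of 14-day-old seedlings, grown on plates of MS medium under 24 h of light a day and cut from their roots, were pooled, about 24 to an array. The labels name no cold, drought or other treatment. The replicates are called biological, so a p-value here covers only the variation from pool to pool.

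CBF4 belongs to the AP2-domain CBF/DREB1 factors, which bind the C-repeat (dehydration-responsive) element and are best known as activators of cold- and drought-protective genes. Plants that overexpress factors of this group are known to grow slowly and to hold back gibberellin-dependent growth. Wall proteins such as extensins and class III peroxidases build and stiffen the plant cell wall, and lectins bind sugars. AtNF-YB1 is one of the histone-fold proteins that, joined with NF-YA and NF-YC partners, bind CCAAT boxes.

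The tissue label and the arrays were checked before the members. The 6 photosynthesis genes measured of 10 on a shoot list gave a summed intensity of 10358 to 10768 units on the CBF4 arrays and 9946 to 10877 on the others, which overlap. The deposited array medians ran from 9.23 to 22.7 units. The NOS 3′ UTR probe set, which reads a vector end, gave 154 to 705 deposited units on the 8 transgenic arrays, 0.50 and −0.44 on wild type replicates 1 and 2, and 52.3 in the hybridization labelled wild type replicate 3. There the E9 3′ UTR vector probe set gave 1164 units, where the CBF4 arrays gave 504 to 591. Summary values without that hybridization are therefore given for the difference between CBF4 and the other arrays. The comparisons with wild type below include it. In RNA from whole shoots, fewer cells of a type and less RNA per cell cannot be told apart.

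The median member lay at −0.82 log2 on the CBF4 arrays relative to the other 7, a 1.76-fold lower level, and the range was −2.63 to −0.50. For 20 members the difference was −1 log2 or lower. With the floor raised to the 40th percentile the lowest difference was −1.93 and 15 members lay at −1 or lower. The means of the other 7 arrays ran from 4.04 to 8.87, with a median of 5.50. The median SD over the 4 CBF4 arrays was 0.29 log2 and that over the other 7 arrays was 0.29, against 0.21 and 0.21 over the 9743 plant probe sets with a mean of at least 4. The gap between the highest CBF4 array and the lowest other array had a median of 0.16 log2, and it was under 0.1 for 23 members. With the hybridization labelled wild type replicate 3 left out, the median difference was −0.84, and each member's difference was 0.884 to 1.12 times its main value.

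Complete separation of the CBF4 arrays in this direction, at any size, was met by 171 plant probe sets (0.883%), and separation with CBF4 above the rest by 165 (0.852%). Among the 9743 with a mean of at least 4 on the other arrays, 1.4% had CBF4 below the rest. The 69 members are 0.356% of the plant probe sets. Just inside the limit of −0.5 lay AT5G59540 at −0.53, AT4G24350 at −0.52 and the unnamed MRT3702_24770C.2_at at −0.50. Just outside lay the unnamed MRT3702_15790C.2_at at −0.50, ZW9 at −0.49 and the unnamed MRT3702_8031C.2_at at −0.48. At the limit of 4 for the other arrays, MRT3702_24157C.2_at, UGT72E2 and MRT3702_11323C.2_at had means of 4.04, 4.10 and 4.11, while AT1G77810, AT2G41550 and AT1G64590 missed it with 3.97, 3.92 and 3.78.

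**Figure D1:**
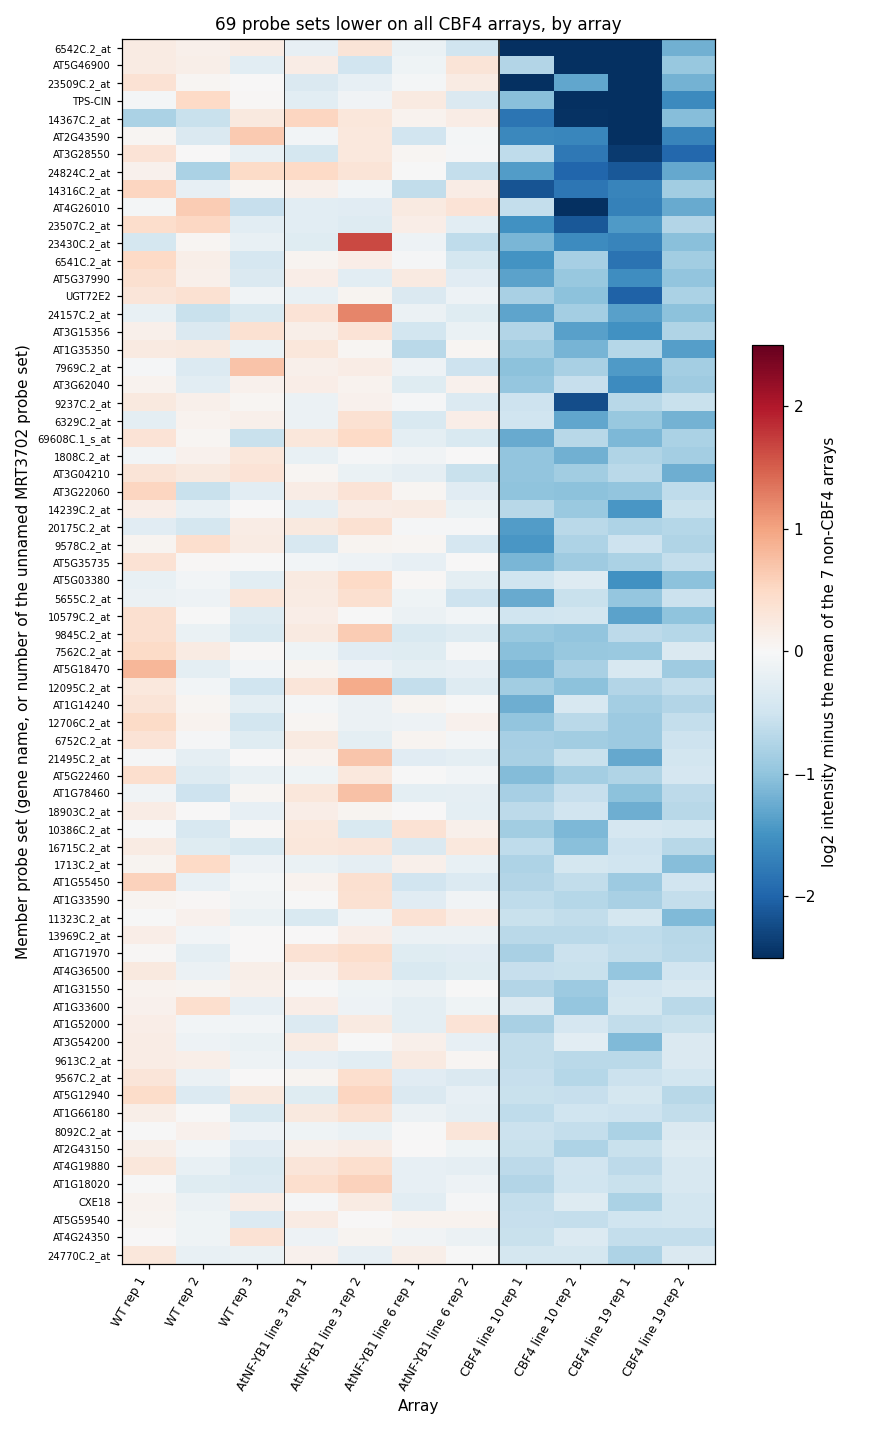
Each row is 1 of the 69 members and each column 1 array; colour is the log2 intensity minus the member's mean over the 7 arrays without CBF4, with the scale ending at 2.5 in each direction. The 4 CBF4 columns on the right are below 0 for every member, as the selection required, and the AtNF-YB1 line 3 columns mostly lie above those of line 6.

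The CBF4 arrays differed among themselves in how low the members lay. Relative to the mean of the other 7 arrays, the median member was at −0.82 and −0.81 on line 10 replicates 1 and 2, and at −0.91 and −0.70 on line 19 replicates 1 and 2. Line 19 replicate 1 held the lowest value for 28 of the 69 members and line 19 replicate 2 for 7. Among the other 7 arrays the medians ran from −0.14 to 0.17, with AtNF-YB1 line 6 replicates 1 and 2 lowest at −0.13 and −0.14.

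The role group with the largest median difference was that of secreted and wall proteins. These 6 genes had a median of −1.65 log2, or −1.02 with the floor at the 40th percentile, a grouping made by function after the members were known, as are those that follow. AT5G46900 encodes a small secreted protein of the lipid transfer and protease inhibitor superfamily. Its probe set read 3.80 and 0.93 on the line 10 arrays and 0.93 and 3.59 on the line 19 arrays, against 4.05, 4.68 and 4.85 as the lowest, median and highest of the other 7. Line 10 replicate 2 and line 19 replicate 1 were at the floor while the other array of each line was not, so the difference of −2.22 depends on the floor and was −1.07 with the floor at the 40th percentile. AT2G43590, a chitinase that would act on fungal walls, read 5.63 and 5.61 on the line 10 arrays and 4.42 and 5.59 on the line 19 arrays, against 6.77, 7.19 and 7.89. Its difference was −1.93 log2 (3.81-fold), with a gap of 1.14 log2 between the highest CBF4 array and the lowest other array. It met the rule in 17 of 17 alternatives of scaling, floor, filter and left-out arrays, which describes the selection and is no test of the difference.

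AT3G28550 and AT2G43150 both encode proline-rich extensin-like proteins, which crosslink in the wall. AT3G28550 gave 3.97 and 2.82 on the line 10 arrays and 2.22 and 2.65 on the line 19 arrays, against 4.18, 4.62 and 4.95 on the rest, a difference of −1.70. AT2G43150 was far brighter and differed far less, at 8.11 to 8.54 on the CBF4 arrays and 8.58 to 9.05 on the others (−0.55). AT4G26010, a class III peroxidase of the wall that is known from Arabidopsis root hairs, read 3.74 and 1.46 on the line 10 arrays and 2.63 and 3.07 on the line 19 arrays and 3.75, 4.27 and 4.95 on the others. Its difference was −1.60 (−0.97 with the floor at the 40th percentile), and the separation rested on a single pair of arrays: line 10 replicate 1 at 3.74 lay just below the array labelled wild type replicate 3 at 3.75. The aspartyl protease gene AT1G66180 was at 6.19 to 6.32 with CBF4 and 6.44 to 7.21 without, a difference of −0.57.

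**Figure D2:**
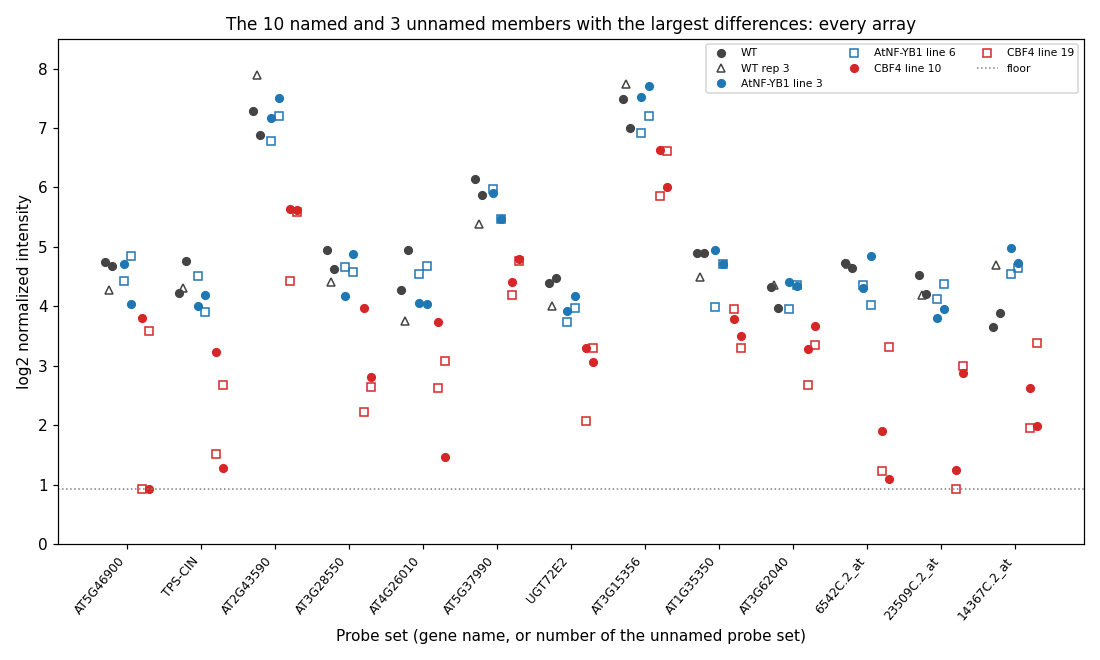
Log2 normalized intensity (y axis) of the 10 named and 3 unnamed members with the largest differences (x axis), with 1 point per array: wild type in grey with replicate 3 as a triangle, AtNF-YB1 in blue and CBF4 in red, circles for lines 3 and 10 and squares for lines 6 and 19. The dotted line is the floor at 0.93. AT2G43590 has its CBF4 points between 4.42 and 5.63 and all others at 6.77 or above, while AT5G46900 has 2 CBF4 points at the floor and 2 above 3.5.

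Enzymes of specialised metabolism and related transferases made up 7 members with a median of −0.69. TPS-CIN, the terpene synthase that makes the volatile 1,8-cineole and is known from Arabidopsis roots, read 3.24 and 1.28 on the line 10 arrays and 1.51 and 2.68 on the line 19 arrays. The other 7 arrays gave 3.91, 4.23 and 4.77 as lowest, median and highest, so the difference was −2.10 log2, with an SD of 0.93 among the CBF4 arrays and 0.29 among the others. With the floor at the 40th percentile that difference was −1.04. Its probe set carries the suffix that Affymetrix gives to sets shared by several transcripts, and its neighbour AT3G25830 carries the same symbol in RefSeq, so signals of the 2 loci cannot be told apart. AT5G37990, a methyltransferase of the SABATH family that methylates small acids, gave 4.40 and 4.80 on the line 10 arrays and 4.19 and 4.76 on the line 19 arrays, against 5.39, 5.87 and 6.14. The difference for AT5G37990 was −1.21 (2.31-fold).

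UGT72E2, a glucosyltransferase of the monolignols from which lignin is built, read 3.30 and 3.07 on the line 10 arrays and 2.07 and 3.30 on the line 19 arrays, against 3.74, 4.01 and 4.47. The difference of −1.16, or −1.36 from wild type alone, came with 1 low array, line 19 replicate 1. Of the 2 other UGT72E genes on the array, UGT72E1 was −0.29 ± 0.18 log2 from wild type (SE, limma adjusted p = 1) and UGT72E3 was at the floor. The remaining 4 enzymes differed less. The methyltransferase gene AT1G55450 was at 5.71 to 6.13 with CBF4 and 6.14 to 7.19 without (−0.69), and the glutathione S-transferase gene AT4G19880 was at 7.25 to 7.50 and 7.53 to 8.33 (−0.55). AT1G18020, an FMN-dependent oxidoreductase related to the jasmonate enzyme OPR, differed by −0.55, and AT5G59540, a 2-oxoglutarate-dependent oxygenase, by −0.53 (7.77 to 7.91 against 8.01 to 8.56).

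The members with the largest differences include genes known from roots, so root markers are given beside them. Of 10 fixed root markers 3 were measured under a name. Their summed normalized intensity was 430 and 255 units on the arrays of CBF4 line 10 and 202 and 238 on those of line 19, against 220 to 497 on the other 7 arrays, so the groups overlapped. PYK10, the root β-glucosidase that makes up most of the sum, read 8.69, 7.93, 7.58 and 7.80 log2 on the CBF4 arrays in the same order and 7.66 to 8.88 on the others. BGLU21 was at 3.02 to 3.75 against 3.57 to 4.47, and the root hair gene EXPA7 at 0.93 to 2.56 against 1.02 to 2.72, at the floor on 2 CBF4 arrays. The mean of each was lower with CBF4 than on the other 7, by −0.36 (PYK10), −0.73 (BGLU21) and −0.37 (EXPA7) log2. Against wild type, 0 of the 3 had a limma adjusted p below 0.05 and 1 had an unadjusted p below 0.05. Of all plant probe sets 0.232% and 6.14% did so. CBF4 line 10 replicate 1 had the highest sum of the 4 CBF4 arrays. AT5G46900, TPS-CIN, AT3G28550 and AT4G26010 each had their highest CBF4 value on that array, still below every array without CBF4. So did the chitinase gene AT2G43590, the lectin gene AT3G15356, the leucine-rich repeat gene AT1G33600 and the unnamed MRT3702_9237C.2_at and MRT3702_6329C.2_at. All further members had their highest CBF4 value on another array. In the hybridization labelled wild type replicate 3 the sum was 220 units, below 3 of the 4 CBF4 arrays. There AT5G46900, TPS-CIN, AT3G28550 and AT4G26010 read 4.28, 4.30, 4.42 and 3.75. Whether root tissue in the pools has a part in the differences of these genes was not tested.

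**Figure D3:**
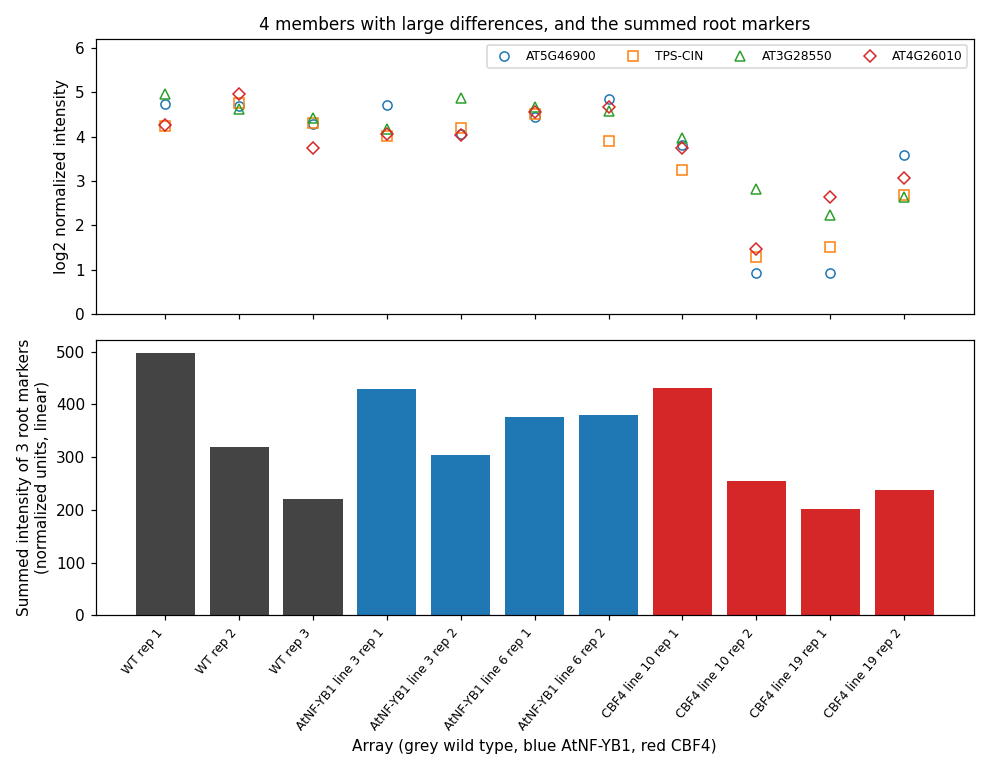
Upper panel, log2 normalized intensity (y axis) of AT5G46900, TPS-CIN, AT3G28550 and AT4G26010 on each array (x axis); lower panel, the summed linear intensity of PYK10, BGLU21 and EXPA7 on the same arrays, in grey for wild type, blue for AtNF-YB1 and red for CBF4. CBF4 line 10 replicate 1 has a root marker sum of 430 units and the highest CBF4 values of the 4 genes, and the array labelled wild type replicate 3 has a sum of 220. Some members not drawn here, such as AT2G43590 and AT3G15356, also had their highest CBF4 value on CBF4 line 10 replicate 1.

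The role group with the most named members was that of lectins, leucine-rich repeat proteins and other immune-type proteins, with 9 genes and a median of −0.69. AT3G15356, a legume-type lectin, had the largest difference, at −1.09 (2.13-fold). It read 6.63 and 6.01 on the line 10 arrays and 5.85 and 6.61 on the line 19 arrays, against 6.92, 7.49 and 7.75 on the rest. The other lectin members were AT5G18470, a mannose-binding lectin of the curculin type, at 3.08 to 3.82 against 3.96 to 5.05 (−0.81), and AT1G52000, a jacalin-type lectin, at 4.49 to 4.88 against 4.96 to 5.65 (−0.60). AT3G04210, which encodes an intracellular TIR-domain protein of the immune receptor family, was at 3.89 to 4.43 and 4.54 to 5.45 (−0.94). AT3G22060, a secreted cysteine-rich relative of receptor kinases, gave 4.70 to 5.08 and 5.16 to 6.26 (−0.91).

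The leucine-rich repeat genes AT1G33590 and AT1G33600 lie next to each other on chromosome 1 and are the only adjacent pair of named members. AT1G33590 read 6.67 and 6.58 on the line 10 arrays and 6.49 and 6.71 on the line 19 arrays, against 7.02, 7.28 and 7.68, a difference of −0.69, and met the rule in 17 of 17 alternatives. AT1G33600 read 5.63 to 6.25 against 6.36 to 7.03 (−0.61). A further repeat gene of the same stretch, AT1G33610, was dim, with a mean of 2.60 on the other arrays, and lay 0.40 log2 higher with CBF4. AT5G12940, another leucine-rich repeat protein, differed by −0.57, and AT3G54200, a hydroxyproline-rich glycoprotein of the LEA family, by −0.58.

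Hydrolases gave 6 members with a median of −0.70. AT3G62040, of the haloacid dehalogenase family, read 3.29 and 3.67 on the line 10 arrays and 2.67 and 3.35 on the line 19 arrays, against 3.95, 4.34 and 4.42, a difference of −1.0. The nucleoside phosphatase gene AT1G14240 was at 3.38 to 4.19 and 4.36 to 4.92 (−0.80), the α/β-hydrolase gene AT5G22460 at 4.24 to 4.90 and 5.0 to 5.73 (−0.77), and the GDSL lipase gene AT1G31550 at 4.87 to 5.39 and 5.64 to 5.90 (−0.63). CXE18, a carboxylesterase of a family that also holds the gibberellin receptors, read 4.85 and 5.14 on the line 10 arrays and 4.66 and 4.99 on the line 19 arrays, against 5.20, 5.43 and 5.67, so that its highest CBF4 array lay close below the lowest of the rest. The difference of CXE18 was −0.54, or −0.58 from wild type alone. Its relative CXE16 was 0.18 ± 0.35 log2 from wild type (SE, limma adjusted p = 1) and CXE20 was at the floor. AT4G24350, of the phosphorylase superfamily, was at −0.52 and was the single member lost when the array labelled wild type replicate 3 was left out.

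Among proteins of membranes, metals and haem, the 4 members had a median of −0.85. AT1G35350, a relative of the phosphate exporter PHO1, read 3.79 and 3.50 on the line 10 arrays and 3.96 and 3.30 on the line 19 arrays, against 4.0, 4.71 and 4.94. Its difference of −1.03 was separated by a gap of 0.04 log2, between CBF4 line 19 replicate 1 and AtNF-YB1 line 6 replicate 1. AT5G35735, a cytochrome b561 with an auxin-responsive DOMON domain, was at 5.35 to 5.89 and 6.28 to 6.85 (−0.86), AT5G03380, a heavy-metal-binding domain protein, at 5.54 to 6.73 and 6.80 to 7.55 (−0.85), and the SOUL haem-binding gene AT1G78460 at 6.29 to 6.75 and 6.80 to 8.05 (−0.77). AT1G71970 and AT4G36500, for which no role is given here, differed by −0.66 and −0.64.

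The 35 unnamed members had a median of −0.83. With the floor at the 20th percentile, the largest difference of all 69 was that of MRT3702_6542C.2_at, which read 1.91 and 1.10 on the line 10 arrays and 1.23 and 3.32 on the line 19 arrays, against 4.03, 4.65 and 4.84 (−2.63). With the floor at the 40th percentile it was −1.27 and ranked 6, and AT2G43590 came first at an unchanged −1.93. MRT3702_6541C.2_at, the next probe set by number, was far brighter and also a member, at 5.24 to 6.26 against 6.65 to 7.58 (−1.26). MRT3702_23509C.2_at read 1.24 and 2.87 on the line 10 arrays and 0.93 and 2.99 on the line 19 arrays, against 3.80, 4.19 and 4.53 (−2.16), with 1 CBF4 array at the floor, and differed by −0.94 with the floor at the 40th percentile. Its near neighbour by number, MRT3702_23507C.2_at, was at 2.59 to 3.98 against 4.39 to 5.24 (−1.45). Of consecutive named probe sets in this numbering 90.3% follow the order of the loci, so these pairs may lie close together in the genome, which the files do not show. MRT3702_14367C.2_at, the third of the unnamed by size, read 2.63 and 1.98 on the line 10 arrays and 1.96 and 3.38 on the line 19 arrays, against 3.66, 4.64 and 4.98 (−1.96, or −1.18 with the higher floor), with wild type replicates 1 and 2 the lowest of the 7. Of the 13 members that met the rule in 17 of 17 alternatives, 11 are unnamed.

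The named members lay on all 5 chromosomes. Chromosome 1 held 11 (32.4%, where it holds 24.8% of named probe sets) and chromosome 2 held 2 (5.88%, against 15.7%). Chromosomes 3, 4 and 5 held 7 (20.6%, against 21.7%), 4 (11.8%, against 14.4%) and 10 (29.4%, against 23.3%). Of the genes within 2 places of a named member, 60 were measured under a name without being members. Of these, 28 were lower and 24 higher on the CBF4 arrays than on the rest and the others had no difference, with a median of 0.00, and 0 had all 4 CBF4 arrays below the other 7. Those without a difference were at the floor, where probe sets cannot separate, and many others were dim. These values therefore cannot decide whether neighbouring genes shared the differences. The chitinase-type neighbours of AT2G43590 were dim: AT2G43570 (CHI), AT2G43580 and AT2G43600 had means of 3.50, 1.53 and 1.08 on the other arrays and differences of −0.16, −0.47 and −0.15. AT5G46910, next to AT5G46900, was at −0.02, and AT3G25840, near TPS-CIN, at 0.39.

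Comparisons that the selection did not contrast directly were tested with limma in 1 fit of the 5 line groups, with p-values adjusted over all 19374 probe sets. The first compared AtNF-YB1 with wild type. It includes the hybridization labelled wild type replicate 3. There the median member lay −0.18 log2 from the mean of wild type replicates 1 and 2, where the median over all plant probe sets was 0. The rule required every AtNF-YB1 array to lie above all CBF4 arrays, so a transcript that AtNF-YB1 lowered to the CBF4 level could not be a member. The comparison therefore cannot decide whether AtNF-YB1 lowers the same transcripts as CBF4. At an adjusted p below 0.05, 0 of the 69 members passed, where 3 of 19371 plant probe sets passed (0.0155%). An unadjusted p below 0.05 was reached by 5 members, against 4.02% of all plant probe sets. The differences ran from −0.53 to 0.65 log2, with 38 below 0 and 31 above and a median of −0.04, and the median over all probe sets was 0.00. The 3 members with the smallest limma p-values were AT3G04210 at −0.53 ± 0.15 (SE, 4 arrays against 3, adjusted p = 0.982), AT1G18020 at 0.38 ± 0.11 (adjusted p = 0.982) and MRT3702_24157C.2_at at 0.65 ± 0.23 (adjusted p = 1).

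For AT3G04210, the TIR-domain gene, all 4 AtNF-YB1 arrays (4.54 to 5.15) lay below the wild type arrays (5.35 to 5.45), and they lay above the CBF4 arrays. Such a separation of AtNF-YB1 below wild type was met by 4 members, AT3G04210, AT1G31550, MRT3702_9578C.2_at and MRT3702_7562C.2_at, against 1.86% of all plant probe sets, and the opposite by 0 members, against 1.93%. The CBF4 differences share these wild type arrays. Given side by side, AT3G04210 was −1.24 from wild type and −0.71 from AtNF-YB1 in the CBF4 arrays, AT1G18020 was −0.33 and −0.71, and AT2G43590 was −2.04 and −1.85.

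The second comparison asked whether the 2 CBF4 lines differ in how low the members lie. As the rule put the arrays of both lines below all others, a transcript lowered in only 1 line could not be a member. The comparison therefore cannot decide whether the 2 lines lower the same transcripts. Of the 69 members 0 passed, against 0.0155% of all plant probe sets, and 3 had an unadjusted p below 0.05, against 3.42%. Line 10 was lower than line 19 for 35 members and higher for 34, with a median of −0.01 log2. Both line 10 arrays lay below both line 19 arrays for 14 members, where 10.8% of all plant probe sets did so, and above both for 6, where 9.71% did so. These shares include dim probe sets tied at the floor, which cannot separate, and shares among brighter probe sets alone were not computed. The smallest limma p-values were those of AT1G31550 at −0.39 ± 0.08 (SE, 2 arrays against 2, adjusted p = 0.743), AT5G03380 at 0.86 ± 0.19 (adjusted p = 0.855) and MRT3702_10579C.2_at at 0.69 ± 0.23 (adjusted p = 1). AT5G03380 read 6.55 and 6.73 in line 10 and 5.54 and 6.03 in line 19, so the lines did not overlap for it. Without CBF4 line 10 replicate 1, 1 member passed, MRT3702_9237C.2_at at −1.60 (limma adjusted p = 0.0422), which left line 10 with a lone array. The difference of that probe set between the CBF4 arrays and the other 7 was −0.59 without CBF4 line 10 replicate 2.

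The third comparison, between the 2 AtNF-YB1 lines, gave the largest median of the 3. Line 3 was higher than line 6 for 49 of the 69, with a median of 0.23 log2, which turned to −0.06 without scaling between arrays. Without scaling the median over all plant probe sets with a mean of at least 4 was −0.25, so that the members lay 0.19 above it, against 0.23 with quantile normalization. Of the 9743 plant probe sets with a mean of at least 4, 49.5% were higher in line 3, and their median was −0.0028. Both line 3 arrays lay above both line 6 arrays for 31 members, where 13.3% of all plant probe sets did so, and below both for 6, where 13.6% did so. Here too the shares include dim probe sets tied at the floor, and shares among those with a mean of at least 4 were not computed. Of the members 0 passed, against 0.0258% of all plant probe sets; 15 had an unadjusted p below 0.05, against 4.18%, and 14 of the 15 were higher in line 3.

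AT1G71970 came nearest, at 0.70 ± 0.12 (SE, 2 arrays against 2, adjusted p = 0.371), with 5.86 and 5.93 in line 3 and 5.20 and 5.20 in line 6. AT1G18020 was at 0.67 ± 0.14 (adjusted p = 0.673) and MRT3702_12095C.2_at at 1.07 ± 0.29 (adjusted p = 0.939). By role, line 3 was higher for 8 of the 9 lectin, repeat and immune-type members (median 0.34), for 4 of 4 membrane, metal and haem members (median 0.47), and for 3 of 6 secreted and wall proteins (median 0.06). Members measured on the same arrays are not independent, and no test was made over the list.

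**Figure D4:**
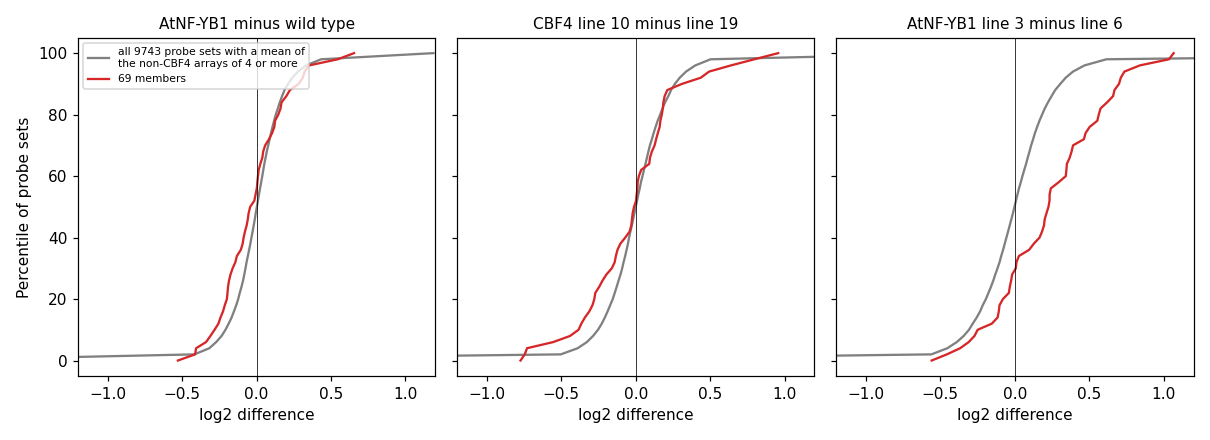
Percentile (y axis) of the log2 difference (x axis) in the 3 comparisons that the selection did not contrast directly. The 69 members are in red, and all 9743 plant probe sets with a mean of at least 4 on the non-CBF4 arrays are in grey. The medians lie close together for AtNF-YB1 minus wild type and for CBF4 line 10 minus line 19, where the members are more spread. The median absolute difference is 0.16 for members against 0.10 in the first, and 0.17 against 0.12 in the second. For AtNF-YB1 line 3 minus line 6 the members lie to the right, with a median of 0.23 (−0.06 without scaling between arrays).

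Related genes that are not members were read from lists fixed by locus or by words in the RefSeq names, and were compared between CBF4 and wild type with the same fit, in which 0.232% of all plant probe sets passed, 0.181% higher and 0.0516% lower, and 6.14% had an unadjusted p below 0.05. Of 7 glutathione S-transferases 6 were lower, 0 passed and 1 had an unadjusted p below 0.05 (median −0.18), with GSTU26 at −0.58 ± 0.21 log2 (SE, adjusted p = 0.68). Of 7 calcium-binding genes 6 were lower, 0 passed and 1 had an unadjusted p below 0.05 (median −0.43), with CML42 at −0.48 ± 0.15 (adjusted p = 0.57). That median is the value of CML38, which was at the floor on all 4 CBF4 arrays and on wild type replicates 2 and 3. Among the lower genes AT1G76640 was also at the floor on all 4 CBF4 arrays, and CML37 on 3. Of 38 UDP-glycosyltransferases 22 were lower, 14 higher and 2 without a difference, with every array of these 2 at the floor. None of the 38 passed, and 6 had an unadjusted p below 0.05 (median −0.06). UGT71C1 had all CBF4 arrays below the other 7, at −1.12 ± 0.32 log2 from wild type (SE, limma adjusted p = 0.512), and was too dim to be a member. UGT72B3 went the other way, with 5.04 to 5.75 on the CBF4 arrays and 3.60 to 4.33 on the other 7, at 1.47 ± 0.22 from wild type (SE, limma adjusted p = 0.104). Of 9 peroxidases 3 were lower, 5 higher and 1 without a difference, 0 passed and 2 had an unadjusted p below 0.05 (median 0.01). The peroxidase median is the value of Prx37, at the floor on 2 CBF4 arrays and on wild type replicates 1 and 2. The CBF regulon list, given as the known direct targets, had 5 of 8 genes measured, all 5 higher and 4 of them passing, KIN1, KIN2, COR15A and COR15B (median 4.19). The median over the 11286 named genes that are not members was 0.00.

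The membership itself depended on scaling. With each array centred on its median 63 of the 69 were still members, and without scaling 20 were. Left out, the hybridization labelled wild type replicate 3 cost 1 member and let the rule take 107 probe sets in all.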

How the data were processed

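Per the labels, total RNA of pooled shoots was amplified, biotin-labelled and hybridized to 11 Affymetrix arrays. The deposited values are linear probe set intensities, of which 13.4% of plant values lie below 0; how they were computed and scaled was not given in the sources used here. Its table holds 19658 probe sets, and 284 controls were left out. The remaining 19374 (19371 plant, 3 vector) were quantile normalized over the arrays, raised to a floor at the 20th percentile (1.90 units) and taken to log2. Of the plant probe sets 11598 have 1 gene symbol, 0 have several and 7773 have none; 11547 matched RefSeq TAIR10.1. A probe set was named by that annotation only.

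Contrasts were fitted with limma 3.58.1 (R 4.3.3) over 5 line groups with 6 residual degrees of freedom, and p-values were adjusted by Benjamini-Hochberg with a threshold of 0.05. The fit was tested on simulated data. Array number limits the precision. The members, lists and role groups were chosen with earlier results of these data known. Full values are given for the 10 named and 3 unnamed members with the largest differences and for list members; for each contrast the 3 with the smallest p-values are named. UGT72E, CXE and TPS lists were chosen after values were seen. Alternatives were scaling, floor, dim filter, variance model, array weights, pooling, replicate number and leaving out each array. Lists of immune receptors, receptor kinases, GDSL lipases and lipid transfer proteins, and the jasmonate list, had 0 genes measured under a matching name. Figures were drawn with matplotlib 3.10.9. Promoter and protein sequences were not used here.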

Additional observations from a re-analysis of the deposited data

Results flagged for a closer look

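Signal of vector ends was found in a wild type hybridization, outside the comparisons above. The NOS 3′ UTR probe set gave 52.34 deposited intensity units in the hybridization labelled wild type replicate 3, against 0.498 and −0.437 in replicates 1 and 2. In the same hybridization the E9 3′ UTR probe set gave 1164 units, above the 504 to 591 of the CBF4 arrays. The cause was not tested.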

How the results depend on the processing

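Over 1295 combinations of a member and an alternative setting, the CBF4 difference kept its sign in all, and in 1275 it moved by less than the spread between replicates. The rule had already put every CBF4 array below all others, so leaving out an array or a line could hardly reverse the sign. These counts and those below describe the selection and are no independent support for the differences. Of the 20 that moved further, 6 came with the floor at the 40th percentile, among them MRT3702_6542C.2_at (−1.27), TPS-CIN (−1.04), MRT3702_23509C.2_at (−0.94), MRT3702_14367C.2_at (−1.18) and MRT3702_24157C.2_at (−0.81). Under that floor 6 members had differences over 1.5 times smaller. The number of probe sets that met the rule was 30 without scaling between arrays and 68 to 114 with 1 array left out, with 107 without the hybridization labelled wild type replicate 3, 111 without CBF4 line 10 replicate 2 and 114 without CBF4 line 19 replicate 2. It was 139 with CBF4 line 10 alone and 150 with line 19 alone, 2 alternatives chosen after seeing the data, and 63 of the 69 members were among each. Of the members, 13 met the rule in all 17 alternatives of scaling, floor, filter and left-out arrays.

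Without scaling, the median member difference was −0.24 for AtNF-YB1 minus wild type, 0.18 for CBF4 line 10 minus line 19 and −0.064 for AtNF-YB1 line 3 minus line 6, while the probe sets with a mean of at least 4 had medians of −0.20, 0.20 and −0.25. With 1 array left out, the median for line 10 minus line 19 ran from −0.20 to 0.050, and 0 to 1 members passed in that comparison, the 1 without CBF4 line 10 replicate 1, where the lone array is assumed to vary like the other groups. With the replicate block 0 members passed in the 3 comparisons, and the medians were −0.06, −0.01 and 0.23. For arrays of the same replicate number, the correlations computed between groups ran from −0.469 to 0.414 over 20 pairs, with 7 over 0.1. Every pair of transgenic lines gave an identical value at each replicate number, so the 20 values are not independent. They cannot decide whether arrays of the same number share more than that number, and a shared batch is not excluded.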
